A study of Mus musculus with 2 samples.

Results

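Neurexins, neuroligins and the leucine-rich repeat transmembrane (LRRTM) proteins form adhesion complexes across the synaptic cleft. The 9 genes described here, taken by symbol, are the neurexins Nrxn2 and Nrxn3, the neuroligins Nlgn1, Nlgn2 and Nlgn3, and the LRRTM genes Lrrtm1, Lrrtm2, Lrrtm3 and Lrrtm4. They are 9 of 43346 gene rows, and all 9 passed the minimum of 10 summed counts for testing, as did 19829 genes in all. The study has 1 group: cortex of adult C57BL/6J mice aged 8 weeks, labelled cortical plate, with littermates of both sexes pooled and no treatment or mutation stated. It holds 2 libraries, labelled biological replicates 1 and 2, of polyadenylated RNA longer than 200 nt, read as stranded pairs. There is no second condition, so levels, transcript forms and exon use are descriptions, and the tests compare these libraries and not conditions.

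Neurexins sit on the presynaptic side. Each neurexin gene makes long alpha forms from an upstream promoter and short beta forms from an internal promoter, and alternative exons at numbered splice sites give many isoforms. Neuroligins and LRRTMs are postsynaptic ligands: neuroligin-1 is known from excitatory synapses, neuroligin-2 from inhibitory synapses and neuroligin-3 from both. An insert at neurexin splice site 4 hinders binding of LRRTM1 and LRRTM2 and allows binding of cerebellins, while LRRTM3 and LRRTM4 also bind heparan sulphate proteoglycans. Neuroligins carry their own short inserts at sites A and B, the latter in neuroligin-1, which tune the choice of neurexin partner.

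The alternative exons on which the splicing results turn are short, so their sequences are shown first, 5′ to 3′ on the transcribed strand, with GRCm38 coordinates from the GENCODE M21 transcripts. The splice site 4 exon of Nrxn3, 90 nt at chr12:90199147-90199236 (+ strand), is shown because it was included and skipped to similar extents.
Nrxn3 splice site 4: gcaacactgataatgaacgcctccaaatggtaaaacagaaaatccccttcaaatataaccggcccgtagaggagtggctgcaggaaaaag
The splice site 3 exons, at chr19:6488784-6488810 (+ strand) in Nrxn2 and chr12:89354453-89354479 (+ strand) in Nrxn3, are 27 nt long and have the same base at 13 positions (48.1%). Capitals mark the positions at which they differ.
Nrxn2 splice site 3: actgCCtGCgCGtCGGctgCGCACcca
Nrxn3 splice site 3: actgTAtCAgGAtAAActgTAACTcca
The splice site 2 exon of Nrxn2, 24 nt at chr19:6463824-6463847 (+ strand), and the splice site 6 exon of Nrxn3, 27 nt at chr12:89517906-89517932 (+ strand), are shown because both were partly included.
Nrxn2 splice site 2: cacgcagggattggacacgctatg
Nrxn3 splice site 6: ttgcgttgaccaaagctgacctgcaag

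Splice site A of the neuroligins holds 1 exon in Nlgn1 (60 nt, chr3:25920178-25920237 (- strand)), 1 in Nlgn2 (51 nt, chr11:69830563-69830613 (- strand)) and the pair A1 and A2 in Nlgn3 (60 nt each, chrX:101303072-101303131 (+ strand) and chrX:101307075-101307134 (+ strand)). The Nlgn1 exon and Nlgn3 A2 have the same base at 43 of 60 positions (71.7%), marked in capitals in both. A1 and A2 have the same base at only 19 positions (31.7%), marked in capitals in A1. The Nlgn2 exon differs in length and carries no marks.
Nlgn1 site A: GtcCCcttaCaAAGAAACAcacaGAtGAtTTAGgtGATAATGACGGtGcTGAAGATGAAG
Nlgn3 insert A1: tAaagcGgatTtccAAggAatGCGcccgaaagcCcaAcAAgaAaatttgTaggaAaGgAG
Nlgn3 insert A2: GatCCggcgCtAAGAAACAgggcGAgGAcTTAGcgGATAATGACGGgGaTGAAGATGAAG
Nlgn2 site A: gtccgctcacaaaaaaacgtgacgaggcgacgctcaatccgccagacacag
The site B insert of Nlgn1 is not an exon of its own but the last 27 nt of an exon with alternative ends, at chr3:25439865-25439891 (- strand).
Nlgn1 site B: gtaaccgttggagcaattcaaccaaag
All of these inserts are multiples of 3 nt long.

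Depth was similar in both libraries, with 88327121 counts on gene rows in replicate 1 and 88643335 in replicate 2. Markers of all cell and region lists were detected, none at 0 in both libraries. Their composition was not equal. Summed TPM (a level scaled for transcript length and library total) was 3274 in replicate 1 and 4009 in replicate 2 for 5 oligodendrocyte markers, 126 and 377 for 7 striatal markers, and 18.3 and 6.55 for 4 hippocampal markers. All 5, 7 and 4 genes passed the test of the libraries in those directions. The 5 markers of cortical excitatory neurons summed to 1630 and 1374 TPM, with 3 lower and 0 higher by the test. The 6 of inhibitory neurons summed to 781 and 751 TPM, although by counts 5 were higher and 0 lower in replicate 2. In bulk tissue, fewer cells of a type and less RNA per cell cannot be told apart. The part of these markers in the differences below was not tested.

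Nrxn2 (chromosome 19, 6418731 to 6544169 on GRCm38) had the highest level of the 9 genes, at 155 TPM in replicate 1 and 137 TPM in replicate 2 (146 ± 13.0, SD, n = 2), above 97.1% of protein-coding genes. Nlgn2 (chromosome 11, 69823122 to 69837784), the neuroligin of inhibitory synapses, came next with 63.5 and 55.1 TPM (59.3 ± 5.89). Nrxn3 (chromosome 12, 88722876 to 90334935) stood at 33.3 and 34.7 TPM (SD 0.983, n = 2). Neighbours in this order were taken to differ when their means lay further apart than the sum of their SDs and their libraries did not overlap, which held for these genes.

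Lrrtm1 (chromosome 6, 77242689 to 77257791), an LRRTM that binds neurexins at excitatory synapses, followed with 29.1 and 25.6 TPM (27.3 ± 2.45), below Nrxn3 by more than their spread. Nlgn3 (chromosome X, 101299168 to 101325963) had 28.2 and 24.3 TPM (26.2 ± 2.76). Its difference from Lrrtm1, 1.10 TPM (summed SDs 5.21 TPM), lay within the spread and the libraries overlapped. Lrrtm3 (chromosome 10, 63928472 to 64090277) had 22.4 TPM in both libraries and lay below Nlgn3 by more than the spread.

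The remaining genes were lower. Nlgn1 (chromosome 3, 25426215 to 26332460), the neuroligin of excitatory synapses, had 17.8 and 16.3 TPM (17.0 ± 1.02). Lrrtm4 (chromosome 6, 80018877 to 80810143), a receptor for glypicans, had 17.7 and 15.0 TPM (16.4 ± 1.87), and these neighbours overlapped. Lrrtm2 (chromosome 18, 35209003 to 35215024), whose product binds neurexins as LRRTM1 does, was lowest with 7.60 and 7.55 TPM (7.58 ± 0.0354), still above 58.7% of protein-coding genes. By family, neurexins summed to 189 and 172 TPM, neuroligins to 109 and 95.7 TPM and LRRTMs to 76.7 and 70.5 TPM.

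**Figure D1:**
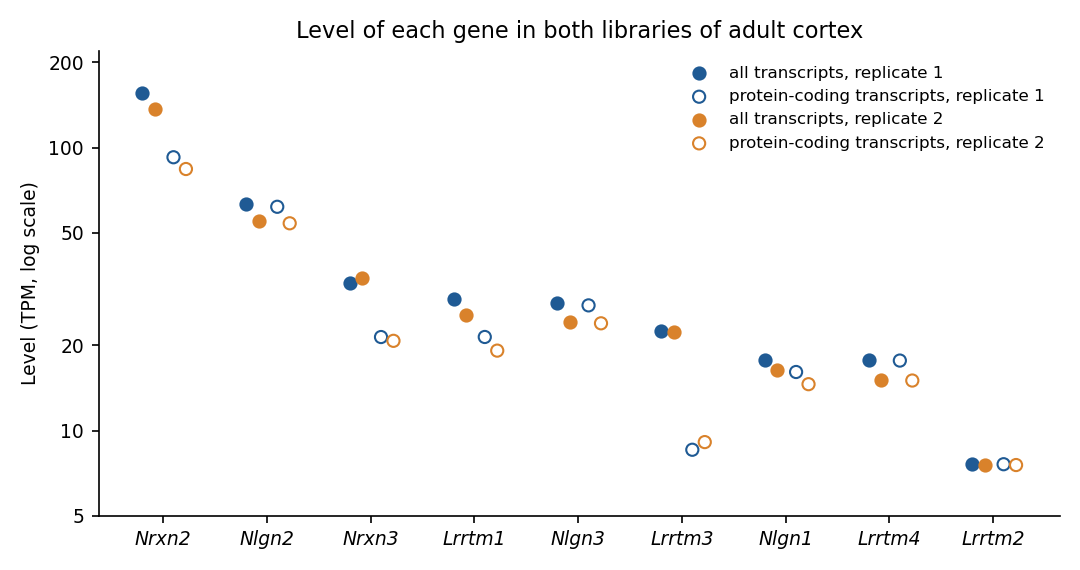
Level in TPM on a log axis for each gene in both libraries, for all transcripts (filled points) and for protein-coding transcripts alone (open points). Nrxn2 stands highest at 155 and 137 TPM and Lrrtm2 lowest at 7.60 and 7.55 TPM, and Lrrtm3 falls furthest when transcripts of other types are left out.

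The order depends on transcripts of types other than protein-coding. They are called noncoding here, although they include targets of nonsense-mediated decay. In Nrxn2, the 576 nt processed transcript Nrxn2-213 took 36.5% and 34.1% of the gene's TPM but only 5.45% and 4.92% of its estimated counts. Noncoding transcripts held 40.5% and 38.7% of TPM in Nrxn2, 35.8% and 40.2% in Nrxn3, 61.8% and 59.3% in Lrrtm3, and 26.3% and 25.1% in Lrrtm1. Not all of these are short: those of Nrxn3 include Nrxn3-208 (6944 nt, 9.19% and 8.51%), and that of Lrrtm1 is Lrrtm1-201 (2958 nt). Both of these are typed as targets of nonsense-mediated decay. With protein-coding transcripts alone, Nrxn2 stood at 92.5 and 84.0 TPM, still the highest. Lrrtm3 stood at 8.55 and 9.10 TPM and moved from the sixth place to the eighth. Nrxn3 stood at 21.4 and 20.75 TPM, below Nlgn3 with 27.7 and 23.9 TPM, and Lrrtm1 at 21.4 and 19.2 TPM, so that Nrxn3 and Lrrtm1 overlapped. The neurexins then summed to 114 and 105 TPM and the neuroligins to 106 and 92.5 TPM, close to each other. In Nlgn2, Nlgn3, Lrrtm2 and Lrrtm4 at most 2.63% of TPM was noncoding. This alternative was chosen after the values were seen.

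Between the libraries the log2 ratios of the 9 genes lay between −0.04 and 0.16. For each gene the counts were compared by an exact two-sided binomial test with TMM scaling, adjusted over all 19829 genes by Benjamini-Hochberg, and 28.3% of all genes passed at 0.05 (14.5% higher and 13.8% lower in replicate 2). Of the 9 genes 4 passed, 3 higher and 1 lower in replicate 2. Their median log2 ratio of counts was 0.00, as was that of all tested genes. The test covers counting error alone. With the spread over both libraries as a common dispersion (edgeR exact test, chosen after the values were seen) 0 of 9 passed at an adjusted p under 0.05, beside 1.31% of all genes, and 0 of 9 had an unadjusted p under 0.05. That dispersion comes from the difference between the same libraries, so a count of 0 says little about these genes.

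Of the neurexins, Nrxn3 had 13023 counts in replicate 1 and 13737 in replicate 2. It was 1.08-fold higher in replicate 2 (95% interval 1.05 to 1.10, adjusted p = 3.78e-08, exact binomial test). Nrxn2, with 26390 and 25932 counts, had a ratio of 1.00 (0.985 to 1.02, adjusted p = 0.923 by the same exact test).

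Of the neuroligins, Nlgn2 had 20105 and 19222 counts, a ratio of 0.975 in replicate 2 over replicate 1 (0.956 to 0.995, adjusted p = 0.0445, exact binomial test). With a minimum of 1 count 3 of the 9 genes passed (22.4% of all genes then tested), and Nlgn2 was the gene lost. Nlgn3 (12899 and 12386 counts, ratio 0.979, 0.955 to 1.00) and Nlgn1 (4741 and 4765 counts, ratio 1.02, 0.984 to 1.07) did not pass. With plain totals in place of TMM 5 of the 9 genes passed, beside 30.8% of all genes (10.3% higher and 20.5% lower), and Nlgn3 joined with a log2 ratio of −0.06 (adjusted p = 0.00251, exact binomial test). With DESeq2 size factors, or a minimum of 50 counts, 4 passed, beside 28.4% and 32.6% of all genes.

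Of the LRRTM genes, Lrrtm3 had 3161 and 3470 counts and was 1.12-fold higher in replicate 2 (1.07 to 1.18, adjusted p = 4.34e-05, exact binomial test). Lrrtm2 had 2811 and 3060 counts and was 1.11-fold higher (1.05 to 1.17, adjusted p = 0.000494, exact binomial test). On the TPM scale the median log2 ratio of all tested genes was −0.16, and relative to it both genes were again higher in replicate 2, with log2 TPM ratios of −0.0019 for Lrrtm3 and −0.0095 for Lrrtm2. Lrrtm1 (4811 and 4623 counts, ratio 0.980, 0.941 to 1.02) and Lrrtm4 (3074 and 2990 counts, ratio 0.992, 0.943 to 1.04) did not pass.

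**Figure D2:**
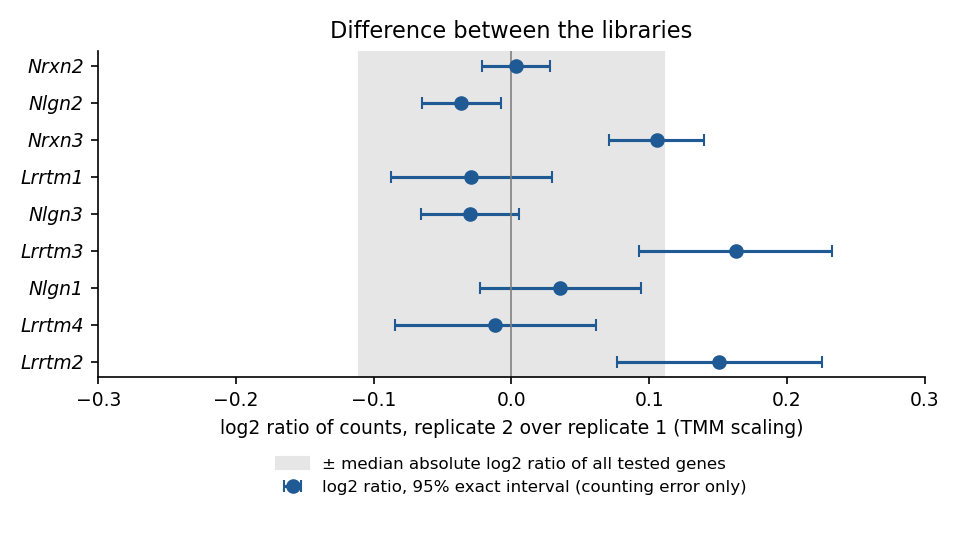
Log2 ratio of counts in replicate 2 over replicate 1 with 95% exact intervals that cover counting error only, beside a grey band of ± the median absolute log2 ratio of all tested genes, 0.11, many of which have far fewer counts. The whole intervals of Nrxn3, Lrrtm3 and Lrrtm2 lie to the right of 0 and that of Nlgn2 just to the left, and the intervals of the other genes include 0.

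Lrrtm1, Lrrtm2 and Lrrtm3 each lie inside an alpha-catenin gene on the opposite strand, Ctnna2, Ctnna1 and Ctnna3. Ctnna2 had 44.5 and 42.5 TPM, Ctnna1 18.9 and 18.1 TPM, and Ctnna3 0.560 and 0.650 TPM. The libraries are labelled stranded, but whether counting used strand is not stated in the sources used here, so the values of Lrrtm1 and Lrrtm2 are uncertain to that extent. Nlgn3 shares its strand with the overlapping gene Gm21986 (3.91 and 3.45 TPM), which could split its reads. Estimated counts of both genes were fractional, 12898.6 and 12386.4 for Nlgn3 and 1417.4 and 1371.57 for Gm21986. The level and count ratio of Nlgn3 may thus rest in part on how reads were shared out, which was not tested.

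The short beta form Nrxn2-202 (3503 nt) led Nrxn2 with 40.0% and 39.7% of the gene's TPM in replicates 1 and 2. The long Nrxn2-204 (5505 nt) followed among coding transcripts with 11.7% and 11.9%. In Nrxn3 the long alpha form Nrxn3-205 (7922 nt) led with 54.2% and 48.6%, and the beta form Nrxn3-203 (2699 nt) had 7.32% and 8.51%. The lead was thus a beta form in Nrxn2 and an alpha form in Nrxn3 in both libraries.

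Spliced reads gave the same order. Junction reads come from a table on mm9 with read columns that are not tied to the replicates, here called the first and the second column, with 39026825 and 38323842 reads. In Nrxn2, the acceptor shared by alpha and beta forms was entered from the beta first exon by 594 of 906 reads in the first column and 561 of 899 in the second. That is 65.6% (95% Wilson interval 62.4 to 68.6%) and 62.4% (59.2 to 65.5%). In Nrxn3 the beta first exon gave 41 of 192 and 60 of 223 reads, 21.4% (16.1 to 27.7%) and 26.9% (21.5 to 33.1%). The intervals of the genes did not overlap in either column. Among protein-coding transcripts on GRCm38, beta forms held 67.5% and 64.996% of TPM in Nrxn2 and 13.9% and 16.7% in Nrxn3. Intervals here and below cover counting error only.

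**Figure D3:**
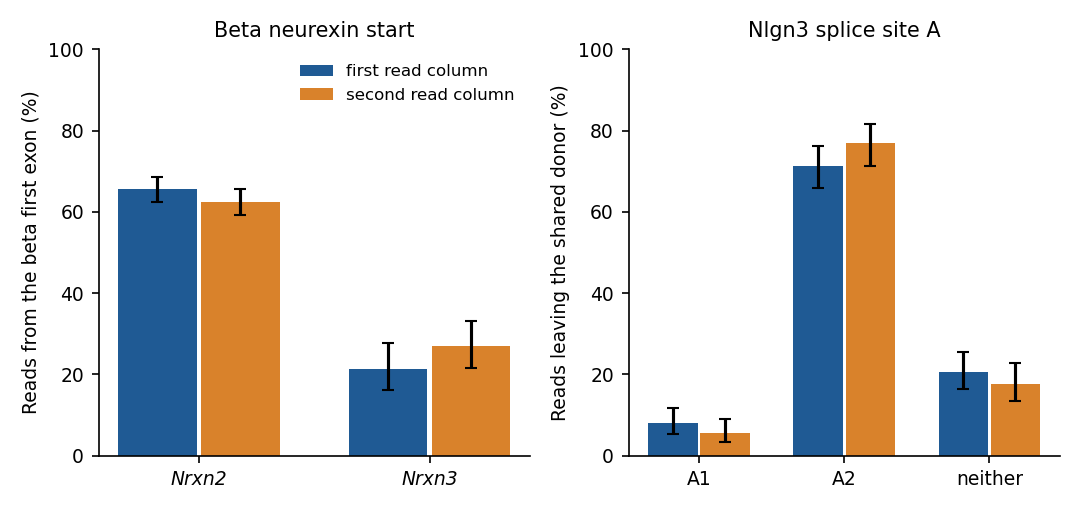
Left, percent of reads entering the shared acceptor from the beta first exon; right, percent of reads leaving the Nlgn3 donor before site A for A1, for A2 or for neither. Bars are the read columns with 95% Wilson intervals; beta starts give 65.6% and 62.4% in Nrxn2 against 21.4% and 26.9% in Nrxn3, and A2 takes 71.3% and 76.9% in Nlgn3.

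Exon inclusion was measured for internal exons with at least 20 informative reads in each column, as the mean of the reads at both ends against the reads that skip the exon. Reads at the ends were taken from annotated junctions alone, and skipping reads from all junctions between the same outer sites. Of 71 such exons in these genes, 15 had a mean inclusion of 10% to 90%, which is 21.1%, beside 2.95% of 111549 internal exons in all genes. Among exons of at most 100 nt the counts were 13 of 23, beside 4.7% of all such exons. The 15 exons lie at 11 positions without overlap, since several share an edge. With the end that had fewer reads, the count was 12. By that end the Lrrtm4 exons of 64, 83 and 153 nt and the Nrxn2 exon of 45 nt stood at 0.41% to 5.13%. These forms thus passed on reads at a shared edge. Lengths of 12 of the 15 were multiples of 3, beside 54.4% of all alternative internal exons and 39.4% of all internal exons. Lrrtm2 had no internal exon measured.

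Splice site 4 was used differently by the neurexins. In Nrxn2, 296 reads entered the 90 nt exon, 150 left it and 685 skipped it in the first column, with 279, 226 and 668 in the second. Inclusion was 24.6% (21.9 to 27.5%) and 27.4% (24.6 to 30.4%). In Nrxn3 the corresponding exon had 92 reads in, 42 out and 59 skipping in the first column, and 111, 55 and 67 in the second, an inclusion of 53.2% (44.5 to 61.7%) and 55.3% (47.3 to 63.1%). The exon was skipped by most reads in Nrxn2 and close to evenly included and skipped in Nrxn3, and the intervals did not overlap. In both genes more reads entered the exon than left it, and with the end that had fewer reads the means were 21.6% in Nrxn2 and 43.3% in Nrxn3.

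The deposited transcript estimates gave other values for most sites. Protein-coding transcripts that hold the splice site 4 exon made up 79.6% of the TPM of the spanning transcripts of Nrxn2 in both libraries, and 88.6% and 85.8% in Nrxn3. These stand far above the junction values, and in the same order. Of 9 alternative exons with such a value, 7 moved from the junction value by more than the spread between columns and 2 did not. The estimates rest on annotated combinations of exons, and the cause of the gaps was not tested.

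Other neurexin sites also differed. In Nrxn2 the splice site 2 exon of 24 nt had 243 reads in, 129 out and 116 skipping in the first column and 198, 133 and 161 in the second. Inclusion was 61.6% (56.0 to 66.9%) and 50.7% (45.5 to 56.3%). A form of this exon longer at its 3′ end, 45 nt, used the same acceptor, and its donor had only 4 and 12 reads. The splice site 3 exon of Nrxn2 had 255 reads in, 99 out and 74 skipping in the first column and 226, 120 and 75 in the second, for 70.5% (64.6 to 75.8%) and 69.8% (63.8 to 75.1%). By transcript TPM it stood at only 34.7% and 37.2%, so that the same exon was mostly included by one measure and mostly skipped by the other. In Nrxn3 the splice site 3 exon was close to constant, with 126 reads in, 118 out and 4 skipping in the first column and 115, 109 and 9 in the second, for 96.8% (92.1 to 98.8%) and 92.6% (86.5 to 96.0%).

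Near splice site 1, the 18 nt exon of Nrxn2 was nearly always present, at 99.4% and 99.3%. The 30 nt exon that follows was included at 67.5% (59.96 to 74.2%) and 60.7% (53.8 to 67.9%), and the 72 nt exon at 76.0% (68.8 to 81.3%) and 81.0% (75.0 to 85.8%). By transcript TPM the 30 nt exon stood higher, at 92.4% and 87.9%, and the 72 nt exon lower, at 39.7% and 44.8%. A 69 nt form of the latter, with an acceptor 3 nt downstream, had 13 and 12 reads at that acceptor. In Nrxn3 the 18 nt exon stood at 97.8% and 100% and the 30 nt exon at 96.9% and 98.9%. Inclusion of the 30 nt exon was thus lower in Nrxn2 than in Nrxn3, with intervals that did not overlap. Splice site 6 of Nrxn3 had 36 reads in, 41 out and 83 skipping in the first column and 44, 56 and 117 in the second, an inclusion of 31.7% (23.6 to 39.8%) and 29.9% (23.5 to 37.3%). By transcript TPM it had only 2.01% and 2.49%. A short internal exon of Nrxn3, next to a first exon within the alpha region, was included at 57.1% (39.1 to 73.5%) and 60.7% (42.4 to 76.4%) on only 28 informative reads a column. Its skipping reads came only from that first exon, so the value does not describe Nrxn3 transcripts as a whole. Of annotated reads into the next acceptor, 18 of 74 and 17 of 72 came from this short exon. That is 24.3% (16.0 to 35.2%) and 23.6% (15.3 to 34.6%), while 44 reads in each column came from the 30 nt exon. These shares leave out 70 and 81 reads, described below, from 4 nt past the 30 nt exon to 8 nt before this acceptor. With those reads counted, the share of the short exon would be lower.

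**Figure D4:**
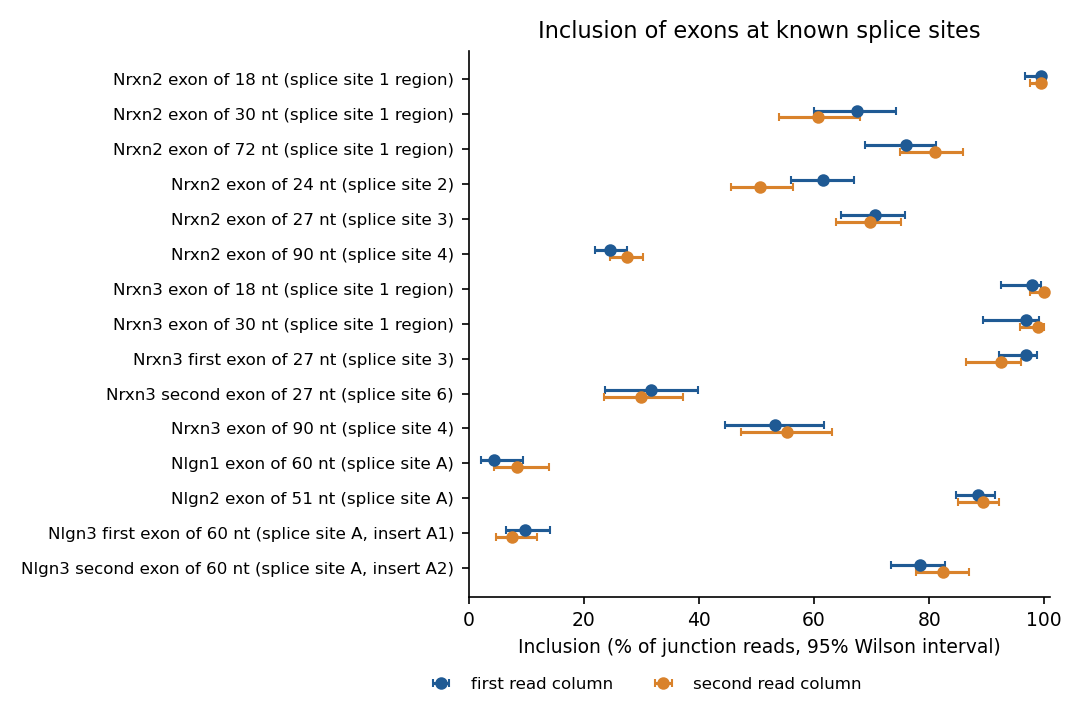
Inclusion in percent of junction reads at known splice sites of the neurexins and neuroligins, with a point and 95% Wilson interval for each read column. Splice site 4 lies at 24.6% and 27.4% in Nrxn2 and at 53.2% and 55.3% in Nrxn3, and site A lies at 4.48% and 8.37% in Nlgn1 and at 88.6% and 89.4% in Nlgn2.

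Without the annotation flag, 5 junctions in these genes had at least 20 reads over both columns, and the pair with the most are given here. A weaker one in Nrxn3, with 23 and 36 reads, joins edges that flagged junctions also use. The flag is not defined in the sources used here. It was read as annotation because all junctions that carry it join annotated exon edges, beside 3.16% of those without it. In Nrxn2, 126 and 107 reads without the flag ran from the end of the splice site 3 exon to a point 9 nt before the annotated acceptor, more than the 99 reads of the annotated junction in the first column and fewer than its 120 in the second. With them inclusion was 76.4% and 75.1%. In Nrxn3, 70 and 81 reads joined a donor 4 nt past the 30 nt exon to a point 8 nt before the next annotated acceptor, which adds 12 nt. The annotated junction there had 44 reads in each column. Weaker junctions also bore on other sites, and with all junctions the mean inclusion of the 69 nt form in Nrxn2 was 71.2% in place of 87.5%. Both values rest mostly on the donor shared with the 72 nt exon, which had 167 and 189 annotated reads. The acceptor of the 69 nt form took only 13 of 114 and 12 of 126 annotated reads from the Nrxn2 exon of 30 nt, 11.4% and 9.52%.

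Toward the 3′ end, Nrxn2 reads from a shared donor split between acceptors 576 nt apart. The upstream acceptor took 650 of 1239 and 737 of 1277 reads, 52.5% (49.7 to 55.2%) and 57.7% (55.0 to 60.4%). In Nrxn3 a donor near the end of the gene had 3 annotated acceptors, and the nearest took 77.6% (70.2 to 83.5%) and 73.4% (66.0 to 79.7%). The others took 10.2% to 13.9% each.

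The neuroligins differed in their use of site A. Nlgn1 mostly skipped it: 128 and 115 reads skipped the exon, against 7 and 9 into it and 5 and 12 out of it, an inclusion of 4.48% (2.07 to 9.42%) and 8.37% (4.37 to 14.0%). By transcript TPM the exon stood at 30.1% and 33.8%, well above the junction values. Nlgn2 mostly included it, with 370 reads in, 234 out and 39 skipping in the first column and 316, 205 and 31 in the second, or 88.6% (84.7 to 91.5%) and 89.4% (84.9 to 92.1%), and by transcript TPM 96.1% and 95.5%. With the end that had more reads, Nlgn2 stood at 90.8% and left the range of alternative exons.

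In Nlgn3 the insert A2 was included at 78.5% (73.4 to 82.8%) and 82.5% (77.7 to 86.9%) and A1 at 9.70% (6.55 to 14.1%) and 7.55% (4.70 to 11.9%). Of the reads leaving the exon before them, 24 of 300 and 14 of 255 ran to A1, 214 and 196 to A2, and 62 and 45 past both. A1 was followed by A2 in 22 and 18 reads. Protein-coding transcripts with A2 held 79.6% and 80.6% of the TPM of spanning transcripts on GRCm38, close to the junction values of A2. Those with A1 held 0.0% and 1.13%, below its junction values. At site A of Nlgn1 the transcript values stood above the junction values. The Nlgn1 exon and A2, which are alike in 71.7% of bases, had inclusion values that did not overlap. At site B of Nlgn1, the donor that keeps the 27 nt had 54 of 54 reads in the first column and 58 of 66 in the second, 100% (93.4 to 100%) and 87.9% (77.9 to 93.7%).

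By deposited share of the gene's TPM, Nlgn2-201 led with 64.6% and 62.0% and Nlgn3-201 with 68.6% and 75.5%. Nlgn1 was spread over Nlgn1-203 (33.8% and 37.2%), Nlgn1-202 (29.5% and 22.0%) and Nlgn1-201 (22.4% and 24.7%). Nlgn3-202 had 9.74% in replicate 1 and 2.84% in replicate 2, a gap that was not tested.

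The LRRTM genes have few introns. Lrrtm2 had a lone annotated transcript and 103 junction reads at its 1 intron of 349 nt. In Lrrtm1, Lrrtm1-202 led with 60.03% and 57.32% of TPM, and Lrrtm1-201, typed as a target of nonsense-mediated decay in GENCODE M21, had 26.3% and 25.1%. Donors 4 nt apart fed the same Lrrtm1 acceptor, the upstream with 156 of 206 and 147 of 207 reads (75.7%, 69.4 to 81.1%, and 71.0%, 64.5 to 76.8%). In Lrrtm3 the coding Lrrtm3-201 led with 38.2% and 40.7%, just ahead of the 545 nt processed transcript Lrrtm3-202 with 36.8% and 37.1%, which had only 192 and 207 estimated counts.

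Lrrtm4 showed a conflict between tables. Lrrtm4-208 led with 52.0% and 55.4% of TPM, and it needs an intron of 785807 nt. The junction table lists no annotated junction into its last exon, and 25 reads in 5 unannotated junctions enter that exon. The longest intron in that table was 496721 nt among annotated junctions and 2355504 nt among all junctions. The cause of the conflict was not tested. Near the start of the gene, 60 of 211 and 35 of 155 reads entered a shared acceptor from a downstream first exon end, 28.4% (22.8 to 34.9%) and 22.6% (16.7 to 29.8%). Exon forms of 64, 83 and 153 nt share that end and passed the inclusion rule at 15.4%, 16.2% and 14.8%, but had at most 10 reads at their own acceptors.

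The other genes of these complexes were taken as 6 lists with 70 genes, all tested. Of these 36 passed the exact binomial test with adjusted p under 0.05, 14 higher and 22 lower in replicate 2 (51.4%, beside 28.3% of all genes), with a median log2 ratio of −0.02 beside 0.00 for all tested genes. The median level of the listed genes was 23.5 TPM beside 6.14 TPM for all tested genes. Only C1ql2 passed with a ratio of at least 1.5-fold, beside 4.17% of all tested genes.

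Among 15 extracellular neurexin ligands, 4 were higher and 6 lower in replicate 2. Car11, a carbonic anhydrase-related protein, was highest at 205 and 173 TPM, followed by the calsyntenin Clstn3 at 154 and 139 TPM, and the neurexophilin Nxph4 was lowest at 2.06 and 1.46 TPM. C1ql2, a secreted C1q-like protein and one of the hippocampal markers above, had 790 and 174 counts, 4.44-fold lower in replicate 2 (95% interval 3.77 to 5.28).

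Among 8 presynaptic adaptors, 0 were higher and 3 lower by the exact binomial test. Syt1, the calcium sensor of vesicle release, was highest at 433 and 370 TPM, the scaffold gene Lin7b came next at 182 and 165 TPM, and Lin7a was lowest at 11.84 and 11.01 TPM. Among 8 postsynaptic partners of neuroligins, 1 was higher and 2 lower. Dlg4, which encodes the scaffold PSD-95, was highest at 425 and 371 TPM, and Mdga1, whose product blocks neuroligin binding, was lowest at 4.92 and 5.23 TPM.

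Among 7 glypicans and other genes tied to LRRTMs, 3 were higher and 3 lower. The receptor phosphatase Ptprs was highest at 180 and 146 TPM, followed by Ctnna2, and the glypican Gpc3 was lowest at 1.33 and 1.59 TPM. Among 23 other trans-synaptic adhesion genes, 5 were higher and 6 lower. Cadm3 had 223 and 200 TPM and Cadm4 had 113 and 103 TPM, while Slitrk6 was lowest at 0.140 and 0.130 TPM. Among 9 splicing regulators of neurexins, 1 was higher and 2 lower. Khdrbs3, whose product SLM2 promotes skipping of the splice site 4 exon, was highest at 95.4 and 75.2 TPM, Rbfox1 had 85.5 and 80.1 TPM, and Khdrbs2 was lowest at 5.44 and 4.69 TPM.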

How the data were processed

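The authors deposited expected counts, TPM and FPKM per gene and transcript on mm10 (GRCm38) with GENCODE M4, per the deposited notes, from transcriptome alignments; the quantifier is not given in the sources used here. TPM divides by length and sums over all rows, so short transcripts weigh heavily. Transcript shares are the percent of a gene's TPM as deposited by the authors. Junction read counts and RPKM values on mm9 with Ensembl 65 are deposited in 2 columns not tied to the replicates, per the file headers. Totals were 91875460 and 92939474 expected counts.

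Names and transcript types came from GENCODE M21 by Ensembl identifier, which matched 98.0% of gene rows. Exon sequences were cut from M21 transcripts; no coordinates were converted. Expected counts were rounded and compared by an exact two-sided binomial test with doubled tails, a minimum of 10 counts over both libraries, 0.5 counts added for log2 ratios and TMM effective library sizes from edgeR 4.0.16 (R 4.3.3), with DESeq2 1.42.0 size factors as an alternative. Tests ran on scipy 1.17.1 and were tested on simulated data. Only sampling of reads is covered by the intervals, at 95%. Both libraries are labelled biological replicates but carry the same donor record, and nothing says that they came from separate animals. Whether differences between them, those of the markers included, are biological or technical was not tested. Skipping reads run from any upstream donor to any downstream acceptor of the inclusion junctions. The named genes are all 9 members, the 2 highest and the lowest of each list by mean TPM, genes that passed with a 1.5-fold ratio, exons at 10% to 90% inclusion and known splice sites. A listed gene and an exon sequence that this rule covers are not reported here. The members and lists were chosen with earlier results of these data known.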

Additional observations from a re-analysis of the deposited data

How the results depend on the processing

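No paired analysis was possible because the study has only 1 group. Leaving out 1 library leaves no contrast, so the count of genes past the threshold has no such value. The count of 4 members past the threshold was 4 with DESeq2 size factors, 5 with plain totals, 3 with a minimum of 1 count and 4 with a minimum of 50 counts; with a common dispersion, chosen after seeing the data, it was 0, but that dispersion was estimated from the same contrast that it tests. The log2 TPM ratios of Lrrtm3 and Lrrtm2, −0.0019 and −0.0095, had the opposite sign to the count ratios, beside a median log2 TPM ratio of −0.16 over all tested genes. The order by TPM kept every member's place with FPKM, with posterior mean TPM and without either replicate (range 0 to 0 members moved), while 4 members changed place with mm9 RPKM, 4 without division by length and 5 with protein-coding transcripts alone, the last chosen after seeing the data. The beta share of Nrxn3 was 15.3% by transcript TPM against 24.1% by junction reads; the cause was not tested. The count of 15 alternative exons ranged from 12 to 15 and the count of 36 other genes past the threshold was 38 and 43 under the scalings tried. By protein-coding transcript TPM, 7 of 9 alternative exons moved from their junction value and 2 did not; splice site 3 of Nrxn2 went from 70.1% to 35.96% and splice site 6 of Nrxn3 from 30.8% to 2.25%, and the cause was not tested. Lrrtm2 has 1 annotated intron, with 103 junction reads, so no exon inclusion could be measured there.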
